A study of Mus musculus with 6 samples.

Results

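The adhesion G protein-coupled receptors were followed across sorted lung myofibroblasts, sorted steady-state lung fibroblasts and whole lung homogenate of the mouse. All array probes whose transcript accession RefSeq assigns to a gene symbol starting with Adgr were taken, without regard to their signal. This gave 26 genes with 43 probes, of 22911 named genes with 32994 named probes. RefSeq lists 28 such symbols, and Adgrd2-ps and Adgrg4 had no named probe and were not analysed here. Celsr1, Celsr2 and Celsr3 belong to the same receptor family but carry other symbols, and are given apart.

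The first group was CD49e+ Sca1- Lin- cells sorted from bleomycin-treated lung, which the labels call myofibroblasts. The second was CD140a+ Lin- cells sorted from untreated lung, called steady-state fibroblasts, and the third was homogenate of untreated lung, which served as the control. All mice were male, and strain and age are not given in the sources used here. Each group had 2 arrays, and the design states sets of 50000 cells. Bleomycin is a drug that injures the lung and is used to bring on fibrosis in mice. The myofibroblasts and the fibroblasts differed in the sorting gate as well as in the treatment, so gate and treatment cannot be told apart. Nothing in the labels states that samples of 1 group were taken from different mice, so the p-values cover only the variation among these samples, and that variation may be technical. The 4 sorted arrays lay in 1 row of the slide and the 2 homogenate arrays in the other, so row and homogenate cannot be told apart either.

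Adhesion receptors carry a long extracellular region built of adhesion domains, joined to a membrane-spanning G protein-coupled receptor. A domain next to the membrane, called GAIN, cuts many of them into 2 pieces that stay together, and the freed end of the membrane piece can act as a built-in agonist. Their ligands are proteins on other cells or in the matrix. In the lung, Adgrf5 is known for restraining the surfactant pool in alveolar type II cells, Adgre1 is the macrophage antigen F4/80, and Adgrl4 is an endothelial receptor.

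Signals are given relative to the 75th percentile of their own array, so that a value of 1 equals that percentile. For a gene with several probes, the brightest probe stands for the gene. Brightness depends on the probe, so levels are set against each other only within a gene, between samples. Each array had between 65.5 and 73.4% of its probes well above background, and the number of arrays limits the precision. Between the 2 arrays of a group, the SD of the log2 difference over detected genes was 0.58 in myofibroblasts, 0.88 in fibroblasts and 0.39 in homogenate. The labelled cell types were checked against markers. Itga5, which encodes CD49e, had relative signals of 3.74 and 5.01 in myofibroblasts, against 0.316 and 0.228 in fibroblasts. Pdgfra, which encodes CD140a, had 9.66 and 10.2 in myofibroblasts, against 73.5 and 35.1 in fibroblasts. Ly6a, which encodes Sca1, was detected in the Sca1- myofibroblasts, at 3.69 and 4.28, against 12 and 19.2 in fibroblasts.

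By the brightest probe of each gene, 15 of the 26 receptor genes were well above background on both myofibroblast arrays (57.7%, against 66.0% of all named genes). In fibroblasts 14 were (53.8%, against 65.7%), and in homogenate 21 were (80.8%, against 72.7%). The same 14 genes were above background on all 6 arrays: Adgra2, Adgra3, Adgrb1, Adgrb2, Adgrd1, Adgre5, Adgrf3, Adgrf4, Adgrg2, Adgrg3, Adgrg6, Adgrl1, Adgrl2 and Adgrl3. Adgre4, Adgrg1, Adgrl4 and Adgrv1 were above background on both homogenate arrays and on no sorted array. Adgre1 and Adgrg5 were above it on both homogenate arrays and 1 fibroblast array, and Adgrf5 on both homogenate arrays and 1 myofibroblast array. Adgra1 was above it on both myofibroblast arrays and on 1 array of each other group, and Adgrg7 on 1 homogenate array alone. Adgrb3, Adgrf1 and Adgrf2 were not well above background on any of the 6 arrays. A dimmer probe gave another pattern for Adgre1, Adgrf3, Adgrf5, Adgrg2, Adgrg3, Adgrl1, Adgrl3 and Adgrv1. The second Adgrf5 probe was above background on both homogenate arrays, both myofibroblast arrays and 1 fibroblast array. A second Adgrv1 probe was above it on 1 myofibroblast array and on no homogenate array. Among the 14 genes, the second Adgrg2 probe was above it on 1 myofibroblast array, both fibroblast arrays and no homogenate array. The second Adgrl1 probe was at background on 1 fibroblast array alone, and that of Adgrg3 was above it on 1 homogenate array alone. The second Adgrf3 probe was above it on no array, and the dimmest Adgrl3 probe on 1 fibroblast and 1 homogenate array.

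**Figure D1:**
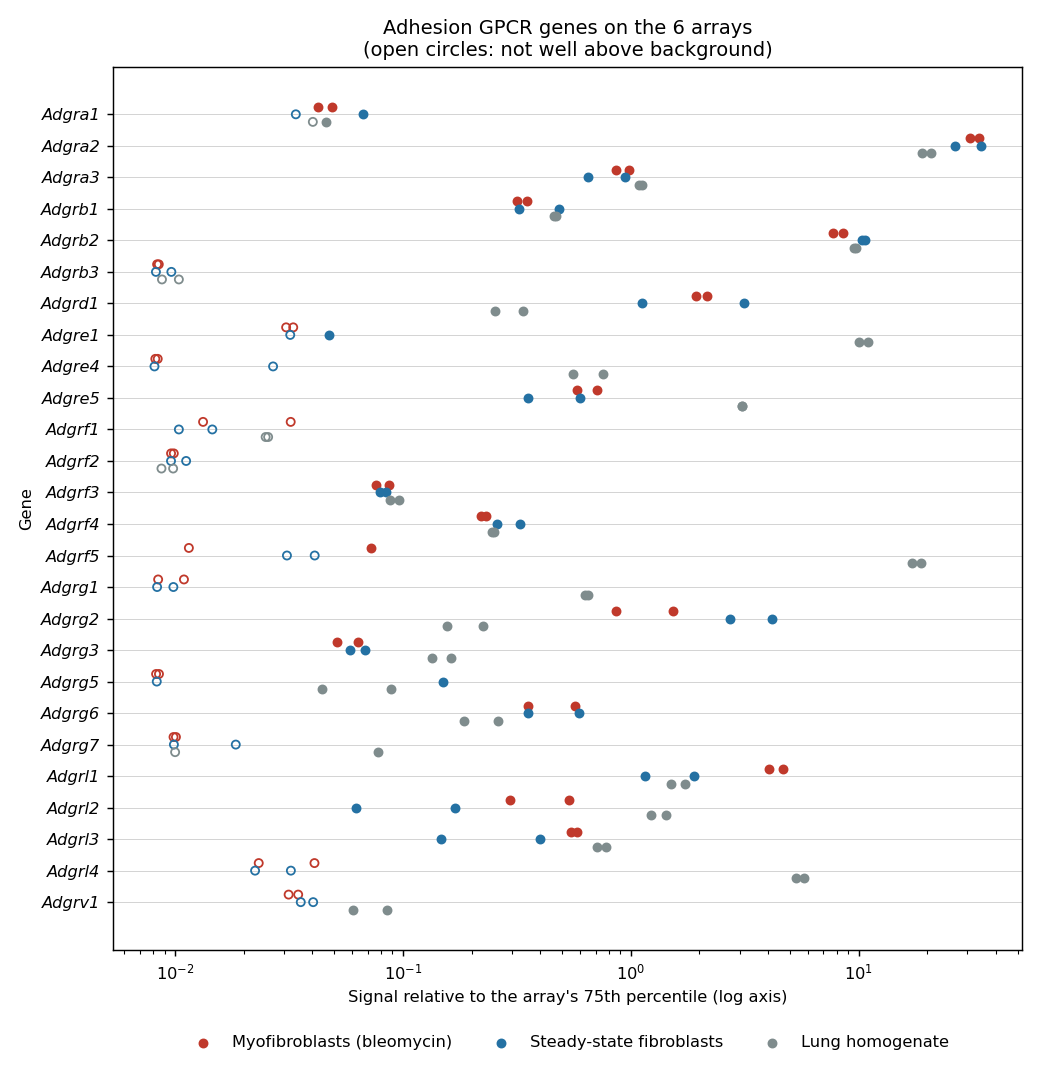
Signal of the brightest probe of each of the 26 receptor genes on each array, relative to that array's 75th percentile on a log axis. Each circle is 1 array of myofibroblasts (red), fibroblasts (blue) or homogenate (grey), and open circles were not well above background. Both sorted groups lie far below homogenate for Adgre1, Adgrf5 and Adgrl4, and above it for Adgrd1 and Adgrg2.

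The genes detected in every sample and those detected mainly in homogenate were set side by side for the base composition of their promoters, as a description with no test. RefSeq promoter windows (GRCm38.p6, 250 bases before to 50 after the start of transcription) were matched by symbol to 19 of the 26 genes. Where a gene had several starts, the one furthest upstream was used. Among the 9 matched genes above background on all 6 arrays, the 300-base window held a median of 30 CG pairs (range 4 to 45). Among the 6 matched genes above background on both homogenate arrays and at most 1 sorted array, it held a median of 7.5 (range 2 to 14). The median over the windows of all 27025 genes was 7. These were not split by detection, so whether the contrast is particular to the receptors was not tested. The sets follow the brightest probes. By a dimmer probe Adgrf5 and Adgrv1 would leave the homogenate set, and Adgrg2, Adgrg3, Adgrl1 and Adgrl3 would leave the first set. Adgrg3, Adgrf4 and Adgrl2 were exceptions in the first set, with 7, 4 and 4 CG pairs. The upstream 250 bases of 5 genes are printed for this contrast, 5′ to 3′ on the plus strand, with each CG pair in capitals. By their brightest probes, Adgrl1 (chr8:83899848-83900097) and Adgrg2 (chrX:160390440-160390689) were detected in all samples and were each called in at least 1 comparison. Adgre4 (chr17:55749734-55749983), Adgrl4 (chr3:151437632-151437881) and Adgrf5 (chr17:43360181-43360430) were far brighter in homogenate.
Adgrl1: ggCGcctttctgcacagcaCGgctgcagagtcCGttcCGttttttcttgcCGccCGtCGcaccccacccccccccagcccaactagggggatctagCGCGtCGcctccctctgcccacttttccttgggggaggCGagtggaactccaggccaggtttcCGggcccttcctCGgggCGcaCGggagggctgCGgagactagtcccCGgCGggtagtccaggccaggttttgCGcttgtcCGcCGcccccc
Adgrg2: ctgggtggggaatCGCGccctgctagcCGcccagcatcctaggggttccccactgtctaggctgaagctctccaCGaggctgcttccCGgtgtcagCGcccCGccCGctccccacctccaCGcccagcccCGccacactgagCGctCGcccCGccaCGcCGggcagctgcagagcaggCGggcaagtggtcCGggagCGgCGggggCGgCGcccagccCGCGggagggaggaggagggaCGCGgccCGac
Adgre4: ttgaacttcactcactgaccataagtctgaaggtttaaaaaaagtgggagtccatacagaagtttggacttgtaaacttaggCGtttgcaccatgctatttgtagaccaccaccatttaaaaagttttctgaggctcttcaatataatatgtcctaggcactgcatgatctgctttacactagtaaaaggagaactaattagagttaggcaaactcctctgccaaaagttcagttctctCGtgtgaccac
Adgrl4: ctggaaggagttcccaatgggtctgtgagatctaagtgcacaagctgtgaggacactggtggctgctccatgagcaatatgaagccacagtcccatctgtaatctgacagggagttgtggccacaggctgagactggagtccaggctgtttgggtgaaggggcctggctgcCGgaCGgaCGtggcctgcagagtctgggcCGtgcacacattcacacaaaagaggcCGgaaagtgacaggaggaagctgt
Adgrf5: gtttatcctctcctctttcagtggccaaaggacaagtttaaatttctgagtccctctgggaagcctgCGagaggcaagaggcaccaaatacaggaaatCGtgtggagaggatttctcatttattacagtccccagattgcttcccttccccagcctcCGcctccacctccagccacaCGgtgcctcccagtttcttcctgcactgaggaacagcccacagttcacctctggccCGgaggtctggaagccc
The printed stretches hold 21 CG pairs in Adgrl1 and 26 in Adgrg2, and 2 in Adgre4, 5 in Adgrl4 and 5 in Adgrf5. The 300-base windows were searched on both strands for 4 motifs, none of which contains another. The GC box GGGCGG was found in 11 of the 19 windows and in 35.9% of all windows. The ETS core AGGAAG was found in 8 of the 19 and in 35.1% of all. TATAAA was found in Adgrl2 alone (14.2% of all windows) and the AP-1 site TGACTCA in Adgrf4 alone (5.17% of all windows). These matches describe letters in a window and are not binding sites.

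**Figure D2:**
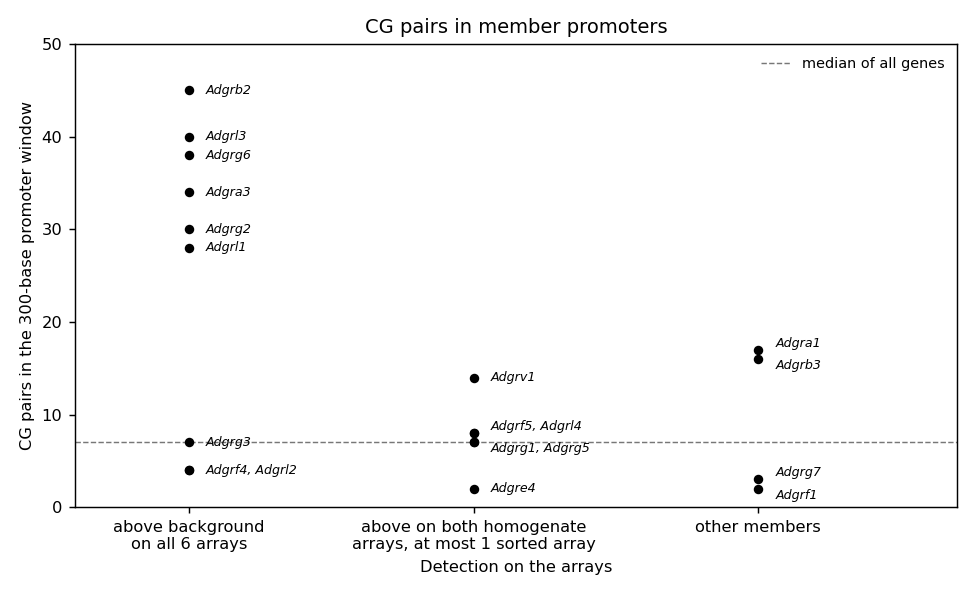
Number of CG pairs in the 300-base RefSeq promoter window (vertical axis) of the 19 matched receptor genes, set out by where their brightest probes were detected. Each point is 1 gene and the dashed line is the median of all windows, 7. Of the 9 genes detected on all 6 arrays, 6 had 28 or more CG pairs, and none of the 6 homogenate-detected genes had more than 14.

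Between the sorted groups, the latrophilin Adgrl1 was the only receptor called in the main setting, and not under every alternative. Adgrl1 is the receptor for the spider toxin alpha-latrotoxin and binds teneurins and FLRT proteins on neighbouring cells. Its relative signal was 4.03 and 4.66 in myofibroblasts, against 1.15 and 1.90 in fibroblasts. Both myofibroblast arrays lay above both fibroblast arrays, and homogenate, at 1.5 and 1.73, lay within the fibroblast range. The log2 difference between myofibroblasts and fibroblasts was 1.55 ± 0.32 (SE, n = 2 arrays each; adjusted p = 0.0280, limma fitted over all genes with Benjamini-Hochberg adjustment). The call ended without myofibroblast replicate 1 (adjusted p = 0.0943) or 2 (0.134), and without either homogenate array (0.0783), when only the 2 sorted groups carry the spread. It ended as well with no filter on dim probes (0.0507), with the 2 compared groups only (0.0783) and with array weights per group (0.0645). Over 17 alternatives the adjusted p ran from 0.00946 to 0.134 and the log2 difference from 1.14 to 3.23. A dimmer Adgrl1 probe had 2.17 and 1.11 in myofibroblasts, against 0.00921 and 0.292 in fibroblasts, where the lower value was not well above background. Its log2 difference was 4.90 ± 1.52 (SE; adjusted p = 0.08 in the fit over all named probes).

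Of the 15 receptor genes tested in this comparison, 1 was called higher and 0 lower in myofibroblasts, or 6.67%. Of all 16005 tested genes, 18.6% were called, 9.83% higher and 8.73% lower. At an unadjusted p under 0.05 limma gave 4 of the 15, namely Adgrl1, Adgrl2, Adgrl3 and Adgrg2. The share of all tested genes at that threshold was not counted, so the 4 are not read as an excess. That share is at least the 18.6% called after adjustment. The median log2 difference of the 15 was -0.01, beside -0.06 over all tested genes, and their median size without sign was 0.25, beside 0.66. The filter admits a gene through either group, so these medians leave out the 11 receptor genes that were dim in both.

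The other latrophilins lay higher in myofibroblasts without passing the test. Adgrl2, a synaptic latrophilin that also binds teneurins and FLRT proteins, had 0.536 and 0.295 in myofibroblasts, against 0.170 and 0.0620 in fibroblasts. The 2 groups did not overlap, and the log2 difference was 1.96 ± 0.55 (SE; adjusted p = 0.0611). It passed with the replicate block (0.0478) and without fibroblast replicate 1 (0.0289), over a range of 0.0289 to 0.217 in all alternatives. Adgrl3, a latrophilin that binds FLRT3 and teneurins at synapses, had 0.583 and 0.548 in myofibroblasts, against 0.147 and 0.398 in fibroblasts. These groups did not overlap either, and the log2 difference was 1.22 ± 0.48 (SE; adjusted p = 0.129). Without fibroblast replicate 2 it was 1.94 (adjusted p = 0.00761), over a range of 0.00761 to 0.780 in all alternatives. Another Adgrl3 probe, above background on all 6 arrays, gave 0.29 ± 0.35 (SE; adjusted p = 0.588).

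Adgrg2, an orphan receptor known from the epididymis, lay lower in myofibroblasts. Its relative signal was 0.860 and 1.53 in myofibroblasts, against 4.15 and 2.72 in fibroblasts, and the groups did not overlap. The log2 difference was -1.55 ± 0.41 (SE; adjusted p = 0.0523), just outside the threshold. It passed under 6 other settings, among them the mean over the probes of the gene (0.0117) and the authors' deposited table (0.0216), and without fibroblast replicate 2 (0.0462). The range over all 17 alternatives was 0.0117 to 0.183, with log2 differences from -1.97 to -1.13. The dimmer Adgrg2 probe, at background on 1 myofibroblast array, gave -1.62 ± 0.62 (SE; adjusted p = 0.123).

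**Figure D3:**
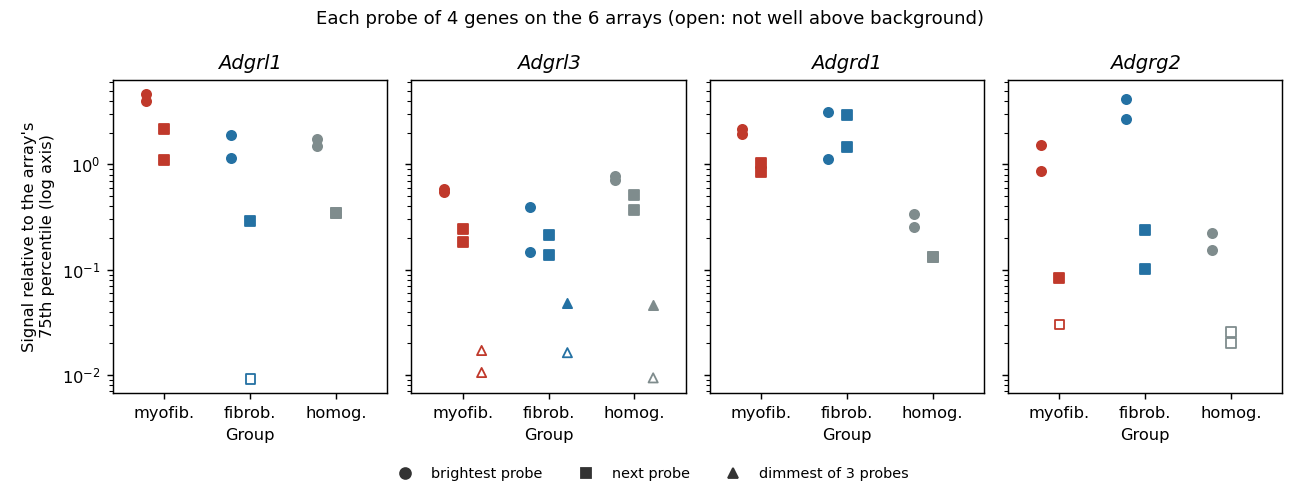
Relative signal (log axis) of every probe of Adgrl1, Adgrl3, Adgrd1 and Adgrg2 on each array, by group. Circles are the brightest probe, squares the next and triangles the dimmest of 3, and open symbols were not well above background. Both Adgrl1 probes are highest in myofibroblasts, and both Adgrg2 probes have their highest value in fibroblasts.

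The remaining 11 receptors tested between the sorted groups had log2 differences from -0.37 to 0.48, none of which passed the test. Adgrb2, one of the brain angiogenesis inhibitor receptors, had 8.52 and 7.72 in myofibroblasts, against 10.7 and 10.3 in fibroblasts. Adgrf4, an orphan receptor, had 0.22 and 0.233 in myofibroblasts, against 0.325 and 0.259 in fibroblasts. Neither pair of groups overlapped, yet the log2 differences were -0.37 ± 0.23 (SE; adjusted p = 0.289) for Adgrb2 and -0.36 ± 0.25 (SE; adjusted p = 0.332) for Adgrf4. Adgra2, which works with Reck in Wnt7 signalling of brain endothelium, had 33.8 and 30.7 in myofibroblasts, against 34.5 and 26.6 in fibroblasts, 2 overlapping groups. Adgrd1, a receptor coupled to Gs, had 1.92 and 2.16 in myofibroblasts, against 1.12 and 3.13 in fibroblasts. The myofibroblast values lay between the fibroblast values, and a second Adgrd1 probe gave -1.15 ± 0.40 (SE; adjusted p = 0.1). Adgre5, the leukocyte antigen CD97, had 0.580 and 0.711 in myofibroblasts, against 0.601 and 0.352 in fibroblasts. Adgrg6, which Schwann cells need for myelination, had 0.569 and 0.353 in myofibroblasts, against 0.591 and 0.356 in fibroblasts, 2 overlapping groups. Its second probe had 0.245 and 0.193 in myofibroblasts, against 0.798 and 0.258 in fibroblasts. Adgra1, Adgra3, Adgrb1, Adgrf3 and Adgrg3 also overlapped between the sorted groups. Among them, Adgra3 had 0.983 and 0.858 in myofibroblasts, against 0.943 and 0.650 in fibroblasts, and Adgrb1 had 0.349 and 0.316, against 0.324 and 0.484.

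Markers of several cell types moved between the sorted groups as well. Of the 8 pericyte and smooth muscle markers, 7 were tested and 5 were called higher and 2 lower in myofibroblasts. The 5 were Des, Actg2, Cnn1, Cspg4 and Myh11, and the 2 were Abcc9 and Kcnj8. Summed over the 8, the relative signal was 59.2 to 73.6 in myofibroblasts, against 12.4 to 14.3 in fibroblasts, and none of the 8 was below background on both arrays of either group. Des, at 30.6 and 42.4, and Actg2, at 17.8 and 19.4, made up most of the myofibroblast sum. A sum mainly follows its brightest genes. Of the 5 Schwann and neural markers, 3 were tested and 2 were called higher, with sums of 8.53 to 8.95 in myofibroblasts, against 0.547 to 0.931 in fibroblasts. Of 10 epithelial markers, 6 were tested and Scgb1a1 and Sftpc were called lower, with sums of 12.1 to 18 in myofibroblasts, against 72.4 to 121 in fibroblasts. Scgb1a1 made up most of each sum, with 10.4 and 15.9 in myofibroblasts, against 118 and 69.0 in fibroblasts. Of 10 endothelial markers, 5 were tested, and Egfl7 was called higher and Tek lower. Of 10 leukocyte markers, 6 were tested and Marco was called higher. The Scgb1a1 call passed under all 17 alternatives, and those of Sftpc, Egfl7, Tek and Marco each ended without some single array. The part of these cells in the Adgrl1 and Adgrg2 values was not tested.

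Against whole lung, Adgre1, Adgre4, Adgrf5, Adgrg1 and Adgrl4 were far lower in myofibroblasts, and 3 receptors were higher. Of 22 receptor genes tested, 3 were called higher and 8 lower in myofibroblasts than in homogenate, or 50%. Of all 17162 tested genes, 27.2% were called, 12.1% higher and 15.1% lower. The median log2 difference was -0.44, beside -0.01 over all tested genes. Of the 22, 7 entered the test through homogenate alone, where they are high. The filter thus helps to set this median and the split of calls, and neither carries weight as evidence of a direction. For those 7 genes the filter also largely fixed that myofibroblasts would lie lower, so the direction of their calls is not a separate result. Among the 14 genes above background on all arrays of both groups, 3 were called higher and 2 lower. Of all genes filtered in this way, 22.6% were called. In a homogenate, fewer cells of a type and less RNA per cell cannot be told apart. The myofibroblasts came from bleomycin-treated lung and the homogenate from untreated lung, so treatment and sorting cannot be told apart here either. With scaling on the array median the split of the 22 tested genes was 5 higher and 7 lower, and the authors' deposited table gave 2 higher and 9 lower. Among all called genes the share called higher was 44.4%, against 66.8% and 20.6% under those scalings.

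**Figure D4:**
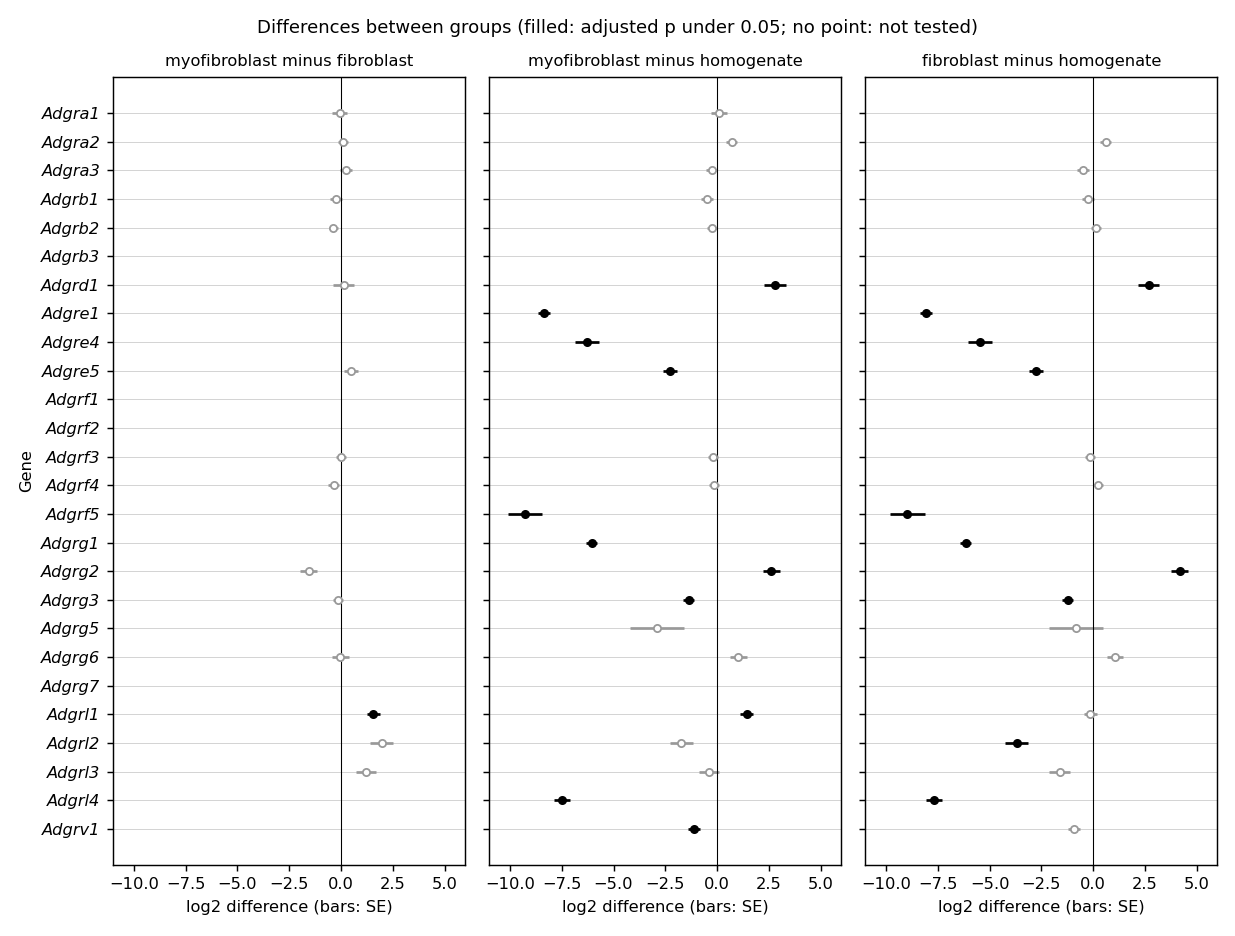
Log2 difference of each tested receptor gene (horizontal axis) in the 3 comparisons, with the SE as a bar. Filled points passed an adjusted p of 0.05, genes without a point were not tested, and points of genes below background in 1 group are fitted values rather than measured folds. Adgrl1 is the filled point between the sorted groups, and the far left points against homogenate are Adgre1, Adgre4, Adgrf5, Adgrg1 and Adgrl4.

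Adgre1, F4/80, was not well above background on either myofibroblast array, at 0.0307 and 0.0330, against 9.98 and 11.0 in homogenate. It was at least 259-fold lower in myofibroblasts (adjusted p = 0.00011). Such a bound is for the brightest probe and divides the mean of the bright group by a floor, which on each dim array was the faintest signal of any probe passing the background test, or the dim probe's own signal where that was higher. Adgre4, a myeloid receptor, had 0.0082 and 0.00839 in myofibroblasts, both at background, against 0.555 and 0.753 in homogenate, at least 16.0-fold lower (adjusted p = 0.00134). Adgrg1, also called GPR56, a receptor of neural progenitors, had 0.00843 and 0.0109 at background in myofibroblasts, against 0.649 and 0.633 in homogenate. It was at least 15.9-fold lower (adjusted p = 0.00018). Adgrl4 had 0.0233 and 0.0409 at background in myofibroblasts, against 5.74 and 5.32 in homogenate, at least 137-fold lower (adjusted p = 0.000231). For all 4 genes, each homogenate array was far above both sorted arrays. The bounds hold for the main processing alone. Over the alternatives the log2 difference fell in size to -5.11 for Adgre1, -1.83 for Adgre4, -1.71 for Adgrg1 and -4.19 for Adgrl4. These values are short of each bound.

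Adgrf5 had 0.0115 and 0.0724 in myofibroblasts, of which the second was above background, against 18.7 and 17.1 in homogenate. The fitted log2 difference was -9.28 ± 0.83 (SE; adjusted p = 0.00124), which rests in part on a value at background. It was -7.95 without myofibroblast replicate 1 and -10.60 without replicate 2, so its size is uncertain. A dimmer Adgrf5 probe was above background on both myofibroblast arrays, at 0.0556 and 0.0991, against 3.40 and 3.50 in homogenate, and gave a smaller log2 difference of -5.54 ± 0.58 (SE; adjusted p = 0.00225). Adgre5 had 0.580 and 0.711 in myofibroblasts, against 3.06 and 3.08 in homogenate. Unlike the genes at background it was measured on all 6 arrays, with a log2 difference of -2.26 ± 0.34 (SE; adjusted p = 0.00686). That call ended without homogenate replicate 1 (0.0566) or 2 (0.0595).

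Smaller differences held less firmly. Adgrg3, a receptor of neutrophils, had 0.0515 and 0.0636 in myofibroblasts, against 0.162 and 0.134 in homogenate, with a log2 difference of -1.37 ± 0.26 (SE; adjusted p = 0.0165). With normexp background correction that difference was -0.21 (adjusted p = 0.264), and the call also ended under quantile normalization, the mean over probes and without any 1 of the 4 arrays compared, over a range of 0.00486 to 0.264. Adgrv1, the very large receptor of hair cell stereocilia, had 0.0347 and 0.0315 at background in myofibroblasts, against 0.0604 and 0.0849 in homogenate. For this probe it was at least 1.77-fold lower (adjusted p = 0.0355), but the fitted log2 difference was -0.01 with normexp correction (adjusted p = 0.968) and the call ended under 11 of the 16 alternatives in which it was tested, over a range of 0.0105 to 0.968. A dimmer Adgrv1 probe ran the other way on 1 array, with 0.00839 at background and 0.0527 above it in myofibroblasts, against 0.00887 and 0.00779 at background in homogenate. Adgrg5, a relative of Adgrg1, was at background in myofibroblasts, at 0.00826 and 0.00850, against 0.0890 and 0.0441 in homogenate, and did not pass the test (adjusted p = 0.154). It passed when fibroblasts did not enter the spread, at 0.00987, over a range of 0.00987 to 0.709.

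Adgrd1 and Adgrg2 were higher in myofibroblasts than in whole lung. Adgrd1 had 1.92 and 2.16 in myofibroblasts, against 0.338 and 0.254 in homogenate, with a log2 difference of 2.80 ± 0.52 (SE; adjusted p = 0.0141). Leaving out 1 array of either group ended that call, at adjusted p from 0.0611 to 0.0955. Its second probe gave 2.83 ± 0.40 (SE; adjusted p = 0.00609). Adgrg2 had 0.860 and 1.53 in myofibroblasts, against 0.155 and 0.224 in homogenate, a log2 difference of 2.62 ± 0.41 (SE; adjusted p = 0.00849) that did not pass without homogenate replicate 1 (0.0661). Adgrl1 was the third, at 1.43 ± 0.33 (SE; adjusted p = 0.0271). Its call ended with the authors' deposited table (0.0781), with the mean over probes (0.174) and without any 1 of the 4 arrays compared, over a range of 0.00433 to 0.174.

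Adgra2 lay higher in myofibroblasts, at 33.8 and 30.7, than in homogenate, at 18.9 and 20.8, without passing the test (0.70 ± 0.26, SE; adjusted p = 0.101). It passed under 7 alternatives, some of them the same fit, over a range of 0.0290 to 0.592. Adgrl2 had 0.536 and 0.295 in myofibroblasts, against 1.23 and 1.42 in homogenate, with a log2 difference of -1.73 ± 0.56 (SE; adjusted p = 0.0711, and 0.0109 to 0.273 over the alternatives). Adgrg6 had 0.569 and 0.353, against 0.261 and 0.185 in homogenate, with 1.03 ± 0.41 (SE; adjusted p = 0.115). For Adgrg6 the second probe, at 0.245 and 0.193 in myofibroblasts, against 0.224 and 0.223 in homogenate, gave -0.04 ± 0.55 (SE; adjusted p = 0.964). The other 7 tested receptors, Adgra1, Adgra3, Adgrb1, Adgrb2, Adgrf3, Adgrf4 and Adgrl3, had log2 differences from -0.48 to 0.08. The second, dimmer probe of Adgrb2 gave 1.55 ± 0.38 (SE; adjusted p = 0.0357), where the brightest gave -0.25 ± 0.23 (SE; adjusted p = 0.463).

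Set against whole lung, steady-state fibroblasts had less signal at 8 receptors and more at Adgrg2 and Adgrd1. This comparison shares the homogenate arrays with the one before it. Of 21 receptor genes tested, 2 were called higher and 8 lower in fibroblasts than in homogenate, or 47.6%. Of all 17061 tested genes, 20.1% were called, 8.19% higher and 11.9% lower. The median log2 difference was -0.83, beside 0.03 over all tested genes. That median is the value of Adgrg5, which rested on 1 array, and 7 of the 21 genes entered the test through homogenate alone. Neither the median nor the split of calls is therefore evidence of a direction. For those 7 genes the filter also largely fixed that fibroblasts would lie lower. Among the 14 genes above background on all arrays of both groups, 2 were called higher and 3 lower. Of all genes filtered in this way, 14.6% were called. With scaling on the array median, the split of the 21 tested genes was 2 higher and 7 lower. The share called higher among all called genes was then 51.5%, against 40.8% in the main setting.

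Among the latrophilins, Adgrl2 was lower in fibroblasts, at 0.170 and 0.0620, than in homogenate, at 1.23 and 1.42. The log2 difference was -3.68 ± 0.56 (SE; adjusted p = 0.00826), and it did not pass without homogenate replicate 1 (0.0501) or 2 (0.0602). The direct test between the sorted groups, given above, did not pass for this gene. Adgrl3 had 0.147 and 0.398 in fibroblasts, against 0.708 and 0.780 in homogenate, with -1.62 ± 0.49 (SE; adjusted p = 0.0748). Without fibroblast replicate 2 it was -2.34 (adjusted p = 0.00536), over a range of 0.00536 to 0.295. Adgrl1 had 1.15 and 1.90 in fibroblasts, on both sides of the 1.5 and 1.73 of homogenate (-0.13 ± 0.32, SE; adjusted p = 0.820).

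Adgrg2 had 4.15 and 2.72 in fibroblasts, against 0.155 and 0.224 in homogenate, with a log2 difference of 4.17 ± 0.41 (SE; adjusted p = 0.00195), the largest increase among the receptors in this comparison. It passed under all 17 alternatives, at adjusted p from 0.000565 to 0.0219. Its dimmer probe had 0.101 and 0.236 in fibroblasts, both above background, against 0.0256 and 0.0202 in homogenate, neither of them well above background. Adgrd1 had 1.12 and 3.13 in fibroblasts, against 0.338 and 0.254 in homogenate (2.67 ± 0.52, SE; adjusted p = 0.0186). That call ended without homogenate replicate 1 (0.0791) or 2 (0.119), over a range of 0.000571 to 0.119, and the second Adgrd1 probe gave 3.98 ± 0.40 (SE; adjusted p = 0.00221).

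Adgre5 had 0.601 and 0.352 in fibroblasts, against 3.06 and 3.08 in homogenate, with -2.74 ± 0.33 (SE; adjusted p = 0.00393). Adgre1 had 0.0472 and 0.0320 in fibroblasts, of which the first was above background, against 9.98 and 11.0 in homogenate. It was called lower (adjusted p = 0.000133), with no measured fold, since 1 of the 2 fibroblast values was at background and a second Adgre1 probe was at background on both fibroblast arrays. By its brightest probe Adgrf5 was at background on both fibroblast arrays, at 0.0410 and 0.0310, and at least 410-fold lower than in homogenate for that probe (adjusted p = 0.00158). Its dimmer probe had 0.0525, above background, and 0.0178, at background, in fibroblasts, against 3.40 and 3.50 in homogenate, and gave a smaller log2 difference of -6.82 ± 0.58 (SE; adjusted p = 0.00130). Adgrl4 was at least 129-fold lower (adjusted p = 0.000217), with 0.0322 and 0.0225 in fibroblasts, against 5.74 and 5.32 in homogenate. Adgre4, with 0.00812 and 0.0269 in fibroblasts, was at least 15.1-fold lower (adjusted p = 0.00245), and Adgrg1, with 0.00834 and 0.00983, at least 15.0-fold lower (adjusted p = 0.000182). Here too the bounds hold for the main processing alone. Over the alternatives the log2 difference fell in size to -5.93 for Adgrf5, -4.26 for Adgrl4, -1.80 for Adgre4 and -1.83 for Adgrg1. Adgrg3 had 0.0589 and 0.0680 in fibroblasts, against 0.162 and 0.134 in homogenate (-1.22 ± 0.26, SE; adjusted p = 0.0273), a call that ended under 9 of 17 alternatives, over a range of 0.0205 to 0.259.

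Adgrg5 differed most between the 2 fibroblast arrays, at 0.00831 and 0.150, of which the second alone was above background. Its difference from homogenate was -0.83 ± 1.30 (SE; adjusted p = 0.708) with both fibroblast arrays. It was 1.26 without fibroblast replicate 1 and -2.91 without fibroblast replicate 2 (adjusted p = 0.0192, over a range of 0.0192 to 0.948), so the direction rested on 1 array. Adgrv1 was at background in fibroblasts, at 0.0356 and 0.0404, and did not pass (adjusted p = 0.0761). Adgrg6 had 0.591 and 0.356 in fibroblasts, against 0.261 and 0.185 in homogenate (1.06 ± 0.41, SE; adjusted p = 0.137). Adgra2 had 34.5 and 26.6 in fibroblasts, against 18.9 and 20.8 in homogenate (0.61 ± 0.26, SE; adjusted p = 0.174). In both genes the fibroblast arrays lay above the homogenate arrays without passing the test. The other 5 tested receptors, Adgra3, Adgrb1, Adgrb2, Adgrf3 and Adgrf4, had log2 differences from -0.50 to 0.22 and did not pass, while the dimmer Adgrb2 probe gave 1.66 ± 0.38 (SE; adjusted p = 0.0345).

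Most markers of leukocytes, endothelium and epithelium were also lower in the sorted groups than in homogenate. Called lower in myofibroblasts were 10 of 10 endothelial, 10 of 10 epithelial and 7 of 10 leukocyte markers, and in fibroblasts 9, 10 and 8 of 10. Of 10 endothelial markers, 3 were above background on both myofibroblast arrays, 3 on both fibroblast arrays and all 10 in homogenate. Their summed relative signal was 0.376 to 0.547 in myofibroblasts and 1.51 to 1.85 in fibroblasts, against 98.4 to 101 in homogenate. Kdr, Tie1 and Emcn were above background on no sorted array. Of 10 leukocyte markers, 6 were detected on both myofibroblast arrays and 5 on both fibroblast arrays, against all 10 in homogenate. Their sums were 177 to 185 in myofibroblasts and 176 to 193 in fibroblasts, against 275 to 287 in homogenate, and Ptprc, the common leukocyte antigen, was above background on 1 myofibroblast array and on no fibroblast array. Itgam made up most of each sorted sum, with 163 and 154 in myofibroblasts and 173 and 151 in fibroblasts, against 136 and 143 in homogenate. Itgam and Csf1r were not called against homogenate in either sorted group, so the sums do not show how far the other leukocyte markers fell. Of 10 epithelial markers, 5 were detected on both myofibroblast arrays and 6 on both fibroblast arrays, and their sum in homogenate was 832 to 843. Scgb1a1 alone gave 614 and 602 of that sum. The 4 mesothelial markers summed to 0.252 to 0.457 in myofibroblasts and 0.355 to 0.942 in fibroblasts, against 6.58 to 6.79 in homogenate. The part of these cells in the differences at Adgre1, Adgre4, Adgrf5, Adgrg1 and Adgrl4 was not tested.

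Several receptor genes are neighbours in the RefSeq annotation of GRCm38.p6, and by their brightest probes neighbours did not share one pattern. On chromosome 8, Adgrg5, Adgrg1 and Adgrg3 follow each other among protein-coding genes; Adgrg3 was above background on all 6 arrays, and Adgrg1 on homogenate arrays alone. Adgre5 and Adgrl1 are also neighbours there; against homogenate, Adgre5 was called lower in myofibroblasts and Adgrl1 higher. On chromosome 3, Adgrl2 lies next to Adgrl4; Adgrl2 was measured on all 6 arrays and Adgrl4 in homogenate alone. On chromosome 17, Adgrf5 lies next to Adgrf1, which was not detected, and Adgrf4 next to Adgrf2, which was not detected either.

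The wider family and its partners gave further values. Celsr1, Celsr2 and Celsr3 are cadherin receptors of planar cell polarity. Between the sorted groups Celsr2 and Celsr3 were tested and did not pass. Celsr2 had 1.86 and 1.81 in myofibroblasts, against 2.89 and 2.88 in fibroblasts (-0.65 ± 0.23, SE; adjusted p = 0.0960). Celsr3 had 0.210 and 0.0937 in myofibroblasts, against 0.149 and 0.145 in fibroblasts (-0.07 ± 0.43, SE; adjusted p = 0.919). Celsr1 was at background in both sorted groups, at 0.0219 and 0.0201 in myofibroblasts and 0.0341 and 0.0510 in fibroblasts, against 0.801 and 0.679 in homogenate. The difference of Celsr1 passed in myofibroblasts (adjusted p = 0.000361) and in fibroblasts (0.000676). Celsr2 was also called lower in myofibroblasts than in homogenate, where it had 3.30 and 3.27 (-0.84 ± 0.23, SE; adjusted p = 0.0444), a call that ended with the replicate block, with scaling on the array median, with no filter on dim probes and without any 1 of the 4 arrays compared, over a range of 0.00923 to 0.257.

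Of 28 known binding partners of adhesion receptors, 24 were tested between the sorted groups, and 3 were called higher and 1 lower in myofibroblasts. This is 16.7%, near the 18.6% of all tested genes, with a median log2 difference of -0.23, beside -0.06. Col4a2 and Col4a1 encode chains of collagen IV, a ligand of Adgrg6. Col4a2 had 22.9 and 27.3 in myofibroblasts, against 3.46 and 2.72 in fibroblasts (3.03 ± 0.27, SE; adjusted p = 0.00269). Col4a1 had 34.9 and 36 in myofibroblasts, against 8.44 and 6.37 in fibroblasts (2.27 ± 0.26, SE; adjusted p = 0.00540). Thy1, whose human protein binds CD97, the product of ADGRE5, had 7.79 and 7.41 in myofibroblasts, against 0.900 and 1.11 in fibroblasts (2.93 ± 0.25, SE; adjusted p = 0.00254). These 3 passed under all 17 alternatives. Reck, the partner of Adgra2, was the gene called lower, with 0.324 and 0.319 in myofibroblasts, against 3.34 and 1.52 in fibroblasts (-2.81 ± 0.40, SE; adjusted p = 0.0106), and its call ended without myofibroblast replicate 1 or 2 (largest adjusted p = 0.0649). Adgrg6, Adgre5 and Adgra2 themselves did not pass between the sorted groups. Against homogenate, 25 partners were tested, of which 8 were called higher and 2 lower in myofibroblasts, and 6 higher and 4 lower in fibroblasts. Each is 40% of those tested, beside 27.2% of all genes in myofibroblasts and 20.1% in fibroblasts.

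Among the transducers, 1 of 12 tested G protein alpha subunit genes was called between the sorted groups, or 8.33%, with a median log2 difference of 0.43, beside -0.06 over all tested genes. This was Gnai2, higher in myofibroblasts and of the inhibitory Gi class, with 9.99 and 13.9 in myofibroblasts, against 3.61 and 5.75 in fibroblasts (1.37 ± 0.33, SE; adjusted p = 0.0429); the call ended under 10 of 17 alternatives, at up to 0.188. Of 14 tested arrestin, receptor kinase and adenylate cyclase genes, 1 was called, or 7.14%, and it was lower; over all genes 18.6% were called. This was Arrb1, the arrestin that uncouples receptors from G proteins, with 22.3 and 22.6 in myofibroblasts, against 117 and 78.6 in fibroblasts (-2.09 ± 0.28, SE; adjusted p = 0.00855), a call that ended without myofibroblast replicate 1 or 2 (largest adjusted p = 0.0536). Against homogenate, 2 of 16 tested genes of this list were called higher and 8 lower in myofibroblasts, and 1 of 15 higher and 4 lower in fibroblasts, or 62.5% and 33.3%, beside 27.2% and 20.1% of all genes. Of the 14 alpha subunit genes tested there, 3 were called in myofibroblasts, all higher, and 1 was called higher and 1 lower in fibroblasts. These are 21.4% and 14.3%, below the shares of all genes.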

How the data were processed

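Each of 6 samples in 3 groups was hybridised to its own Agilent array, labelled with Cy3 alone, on 1 slide scanned on 1 day. The authors deposited spot intensity values from Agilent Feature Extraction 12.0.3.1, per the file headers, whose processed signal is corrected for background and spatial trend. The authors' deposited table equalled that signal times 1 constant per array, and was used as an alternative. Labelling started from 5.8 ng of total RNA, per the labels' protocols.

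The processed signal was divided by its 75th percentile on the array and log2 was taken. Spots marked as outliers were left out (0 among the receptor probes), and spots of 1 probe were averaged. Probes were named through RefSeq accessions, and 23611 of 56605 had no name here. A gene entered a comparison where either group had its brightest probe well above background on both arrays. The test was limma's moderated two-sided test (version 3.58.1, R 4.3.3; lmFit, then eBayes) from 1 fit of all 3 groups with 3 residual degrees of freedom, with Benjamini-Hochberg adjustment over all tested genes, and called under 0.05. The procedure was tested on simulated data. Each comparison was refitted under 17 alternatives. Mean signals are absent from the scanner columns used, so normexp, with an offset of 50, started from median signals, where the plan named means. The main fit had no replicate block, since the labels do not say that a replicate number marks a shared animal, day or batch. In a later check, same-numbered samples did not deviate together (correlations of 0.07, -0.01 and 0.04 over 13996 genes). All receptor genes could be named, and of each partner list up to 4 called genes with the largest difference between the sorted groups, with the partners of named receptors. The genes and lists were chosen with earlier results of these data known.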

Additional observations from a re-analysis of the deposited data

How the results depend on the processing

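With 2 arrays a group, single calls depended on how the spread was estimated. Between myofibroblasts and fibroblasts, the count of 1 called receptor became 2 with normexp correction, quantile normalization, the authors' deposited table, detection on all arrays of both groups, the mean over probes, a variance trend or the replicate block, and 3 at an adjusted p under 0.1. It became 0 with no filter on dim probes, with the 2 compared groups only and with array weights per group. There limma gave 3, 3 and 4 receptors at an unadjusted p under 0.05, and the shares of all genes at that threshold were not counted. Leaving out 1 array gave 0 to 3. Over all genes the count of calls was 1264 with the 2 compared groups only and 1279 with array weights, beside 2970. Against homogenate, detection on all arrays of both groups left 5 called receptors, beside 11 in myofibroblasts and 10 in fibroblasts, since receptors at background are then not tested. Leaving out 1 array gave 6 to 14 in myofibroblasts and 7 to 12 in fibroblasts. The replicate block, with replicate number as a shared number only, gave 2, 10 and 9 called receptors in the 3 comparisons. No called receptor changed direction in any alternative run. Values that passed neither in the main setting nor in the alternative changed sign in 29 cases between the sorted groups (8 genes, up to 0.62 in size), 14 between myofibroblasts and homogenate (7 genes) and 10 between fibroblasts and homogenate (5 genes). Scaling on the array median moved the median of all genes by 0.17, 0.45 and 0.28 in the 3 comparisons, and the authors' deposited table by -0.41, -0.50 and -0.09. Between the sorted groups the share of all calls that were higher was 53.0%, against 65.9% and 25.1% under those scalings. Receptors near background have only bounds, which hold for the main processing alone. Signal over background limits what can be said of Adgrb3, Adgrf1, Adgrf2 and Adgrg7.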
